A study of Mus musculus with 12 samples.

Results

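Fibroblast growth factor (FGF) signalling in fat was described through 10 genes: the ligands Fgf1, Fgf2, Fgf7, Fgf10, Fgf18 and Fgf21, the receptors Fgfr1, Fgfr2 and Fgfr3, and Klb, which encodes the co-receptor beta-Klotho. They were found by symbol in a table of reads per gene that lists 54134 genes, and each symbol stood for 1 Ensembl gene. Of the 10 genes, 8 had enough reads to enter the test across 15585 genes, while Fgf18 and Fgf21 did not. RNA was sequenced from inguinal white adipose tissue (iWAT), the subcutaneous fat of the groin, of 12 male C57BL/6J mice. At 8 weeks of age, 6 mice received an adeno-associated virus (AAV) carrying green fluorescent protein (AAV-GFP mice) and 6 received one carrying mouse Notum (AAV-Notum mice). In both vectors the human thyroxine binding globulin promoter, which is active in liver, drives the transgene. NOTUM would thus reach iWAT through the circulation. The paper measured NOTUM protein in liver and plasma of mice on a high fat diet and gives no such value for these mice. All mice ate chow for 4 weeks after the injection and were fasted for 4 h before the tissue was taken, and every mouse carried a vector. Mice are named by group and number, as in AAV-GFP-2011.

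NOTUM is a secreted carboxylesterase that removes the palmitoleate group that Wnt ligands need to bind their receptors. FGFs are secreted signals read by receptor tyrosine kinases. Paracrine FGFs, here FGF1, FGF2, FGF7, FGF10 and FGF18, are held near their source by heparan sulfate, which also acts as their cofactor at the receptor. FGF21 is an endocrine FGF that binds heparan sulfate weakly and needs beta-Klotho beside a receptor, chiefly FGFR1, and white fat is one of its main target tissues. FGF1 is induced in fat cells by PPARγ, FGF10 promotes the formation of fat cells, and FGFR1 with beta-Klotho forms the receptor for FGF21 on them. Receptor activation leads through the adaptors FRS2 and GRB2 to the MAP kinases, and Sprouty and Spred proteins limit that signal.

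Libraries held 14711113 to 21618860 reads assigned to genes, so that 1 read stood for 0.0461 to 0.0663 CPM (read counts scaled to the normalized library size). In iWAT itself, Notum had 26.6 CPM in AAV-Notum-2041 and 29.3 CPM in AAV-Notum-2032. It had 0.457 to 0.905 CPM in the other AAV-Notum mice and 0.0595 to 0.995 CPM in AAV-GFP mice. The difference ran in the direction of the labels (log2 fold change 4.64, edgeR adjusted p = 0.168, exact permutation p = 0.0411). The groups overlapped and the vector is expressed in liver, so the iWAT level does not check the label of each mouse. Fat cell markers were high in each library, with the 10 adipocyte markers adding up to 36643 to 64002 CPM per mouse in the AAV-GFP group and 33312 to 75623 CPM in the AAV-Notum group. Lymphoid transcripts were nearly missing from 2 AAV-GFP mice. The mean log2 CPM of 14 lymphoid markers was -0.08 in AAV-GFP-2011 and -0.70 in AAV-GFP-2014, against 3.49 to 7.07 in the other 10 mice. Hepatocyte transcripts stood out in 3 mice, with albumin (Alb) at 3805 CPM in AAV-GFP-2013, 963 CPM in AAV-GFP-2014 and 523.5 CPM in AAV-Notum-2041. RNA integrity numbers ran from 5.7 to 7.6 under AAV-GFP and from 6.9 to 7.4 under AAV-Notum, with the lowest value in AAV-GFP-2011. RNA of AAV-GFP-2012 was isolated on day 28 of the month and that of the other 11 mice on day 8, so that this day cannot be told apart from the mouse. Without AAV-GFP-2012 the log2 fold changes between the groups were -1.26 for Fgf1, -0.70 for Fgf2, -0.55 for Fgfr3 and 0.37 for Klb.

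Levels of different genes were compared as CPM per kilobase of exon. Fgfr1 was the most abundant of the 10 genes, with 30.3 ± 9.54 CPM per kb (SD, n = 12), and 91.5% of the tested genes with a known length had a lower mean level. Fgf10 followed with 16.6 ± 5.20 CPM per kb, and Klb with 13.8 ± 4.06 CPM per kb. Fgf2 had 7.27 ± 3.23 CPM per kb, Fgf1 2.49 ± 1.57 CPM per kb, and Fgfr2 1.80 ± 0.31 CPM per kb. Fgf7, with 1.00 ± 0.40 CPM per kb, and Fgfr3, with 0.867 ± 0.273 CPM per kb, lay low among the tested genes, of which 20.5% and 18.4% were lower. Fgf18, with 0.331 ± 0.232 CPM per kb, and Fgf21, with 0.208 ± 0.230 CPM per kb, closed the order. The ranges over the 12 mice overlapped between each gene and the next in this order. Within a mouse the order was firmer for some neighbours, with Fgfr1 above Fgf10, Klb above Fgf2, Fgf2 above Fgf1, Fgfr2 above Fgf7 and Fgfr3 above Fgf18 in all 12 mice. Fgf10 was above Klb in 8 of 12 mice, Fgf18 above Fgf21 in 8 of 12, Fgf1 above Fgfr2 in 6 of 12 and Fgf7 above Fgfr3 in 6 of 12, so these neighbours were not separated. The ligand and receptors of the FGF21 pathway thus differed widely in level in this tissue, with Fgfr1 and Klb among the more abundant of the 10 genes and Fgf21 at the low end, not separated from Fgf18.

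**Figure D1:**
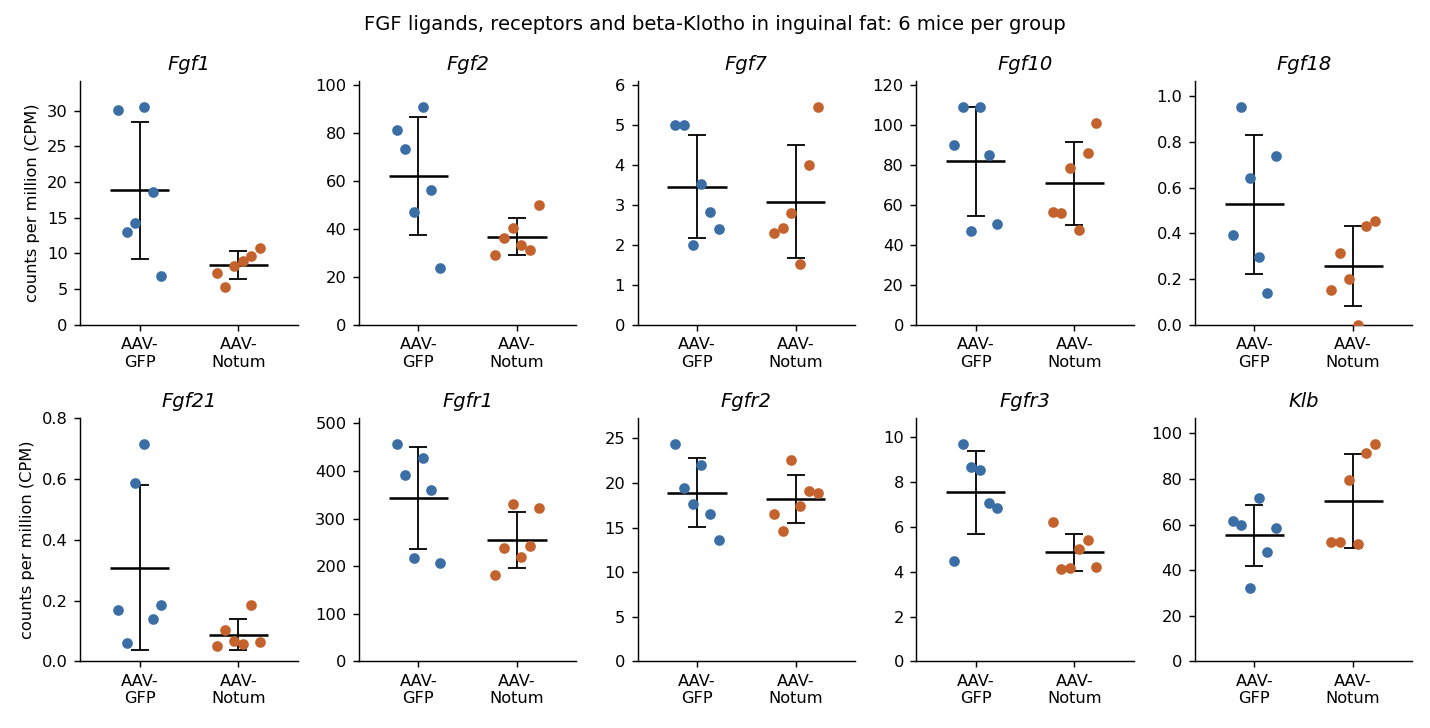
Level of each of the 10 genes in CPM on a linear axis from 0, with 1 point per mouse, 6 AAV-GFP mice in blue and 6 AAV-Notum mice in orange. The line is the group mean and the bar 1 SD. The ranges of the groups overlap for each gene, 5 of 6 AAV-GFP mice lie above all AAV-Notum mice for Fgf1 and for Fgfr3, and 3 AAV-Notum mice lie above all AAV-GFP mice for Klb.

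In the comparison of the groups, the paracrine ligands Fgf1 and Fgf2 and the receptor Fgfr3 had lower mean levels in AAV-Notum mice, by 55.7%, 40.9% and 35.5% as fitted, and Klb had a mean level higher by 27.4%. Fgf7, Fgf10, Fgfr1 and Fgfr2 had fitted differences between -25.7% and -3.97%. None of the 8 tested genes passed an adjusted p of 0.05 in edgeR's quasi-likelihood test, where 0.0513% of all tested genes passed with a lower level and 0 genes passed with a higher one. At an unadjusted p under 0.05, 3 of the 8 (Fgf1, Fgf2 and Fgfr3) were lower and 0 were higher, against a background of 9.54% of all tested genes lower and 4.64% higher. The 10 genes were chosen with earlier results of these data known, so the shares in this paragraph describe them and do not test them. The log2 fold change was below 0 for 7 of the 8 genes, as it was for 48.8% of all tested genes, and the median was -0.32 over the 8 genes and 0.01 over all tested genes. The groups overlapped for each of the 10 genes. Among all tested genes, 0.693% had groups without overlap and AAV-Notum lower, and 0.398% the reverse. In whole tissue, fewer cells of a type and less RNA per cell cannot be told apart.

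**Figure D2:**
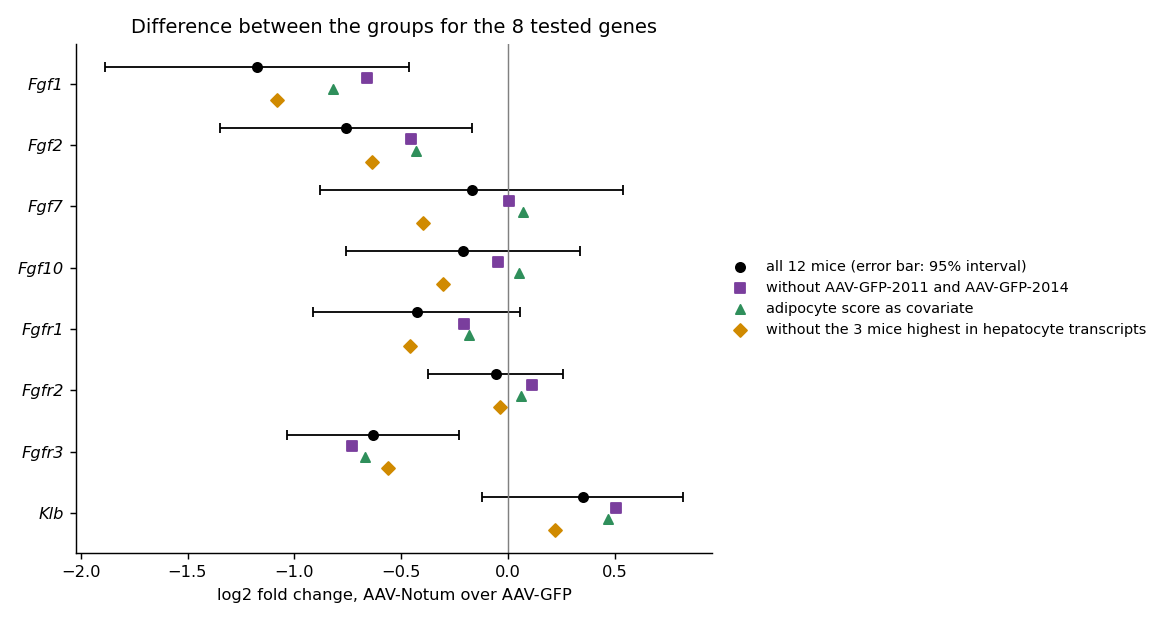
log2 fold change of the 8 tested genes, AAV-Notum over AAV-GFP, with the 95% interval for the fit on all 12 mice (black), and the value without the 2 AAV-GFP mice that nearly lack lymphoid transcripts (purple), with the adipocyte marker score as a covariate (green) and without the 3 mice with most hepatocyte transcripts (yellow). The intervals of Fgf1, Fgf2 and Fgfr3 lie below 0, Fgf1 and Fgf2 move toward 0 in the purple and green fits, and Fgfr3 does not.

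Fgf1 (ENSMUSG00000036585, chromosome 18 of GRCm38, 38838673 to 38929472, minus strand) encodes the FGF that can bind all FGF receptors. It had 6.84, 16.4 and 30.5 CPM as the lowest, median and highest level of the AAV-GFP group, against 5.29, 8.61 and 10.8 CPM in the AAV-Notum group. AAV-GFP-2014 and AAV-GFP-2011 were highest, with 30.5 and 30.1 CPM, and AAV-GFP-2022 was the one AAV-GFP mouse within the AAV-Notum range. Group means were 18.9 ± 9.61 against 8.37 ± 1.92 CPM (SD, n = 6 each), with coefficients of variation of 50.9% and 22.9%. The log2 fold change was -1.17 (standard error 0.33, 95% interval -1.89 to -0.46) with an adjusted p of 0.166 in edgeR. A two-sided exact permutation test of mean log2 CPM gave p = 0.0216. Each AAV-Notum mouse lay below the mean of the AAV-GFP group. The adjusted p of Fgf1 depended on the tool and on 1 mouse, with 0.0233 in DESeq2, where 2.18% of genes were called lower, and 0.0432 in edgeR without AAV-GFP-2022. Without AAV-GFP-2011 and AAV-GFP-2014 the log2 fold change of Fgf1 was -0.66 (standard error 0.26, edgeR adjusted p = 0.643).

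Fgf2 (ENSMUSG00000037225, chromosome 3, 37348346 to 37410108, plus strand) encodes basic FGF, a growth factor for stromal, endothelial and fat precursor cells. The lowest, median and highest levels were 23.5, 64.8 and 90.7 CPM in the AAV-GFP group, against 28.9, 34.6 and 50.04 CPM in the AAV-Notum group. The same mice stood out as for Fgf1, with AAV-GFP-2014 and AAV-GFP-2011 highest and AAV-GFP-2022 lowest of the 12, below every AAV-Notum mouse. Group means were 62.0 ± 24.7 against 36.7 ± 7.69 CPM (SD, n = 6 each). Fitted in edgeR, Fgf2 had -0.76 on the log2 fold change scale (standard error 0.27, adjusted p = 0.252), and the two-sided exact permutation p was 0.0693. Without AAV-GFP-2022 the edgeR adjusted p of Fgf2 was 0.0461, and without AAV-GFP-2011 and AAV-GFP-2014 the log2 fold change was -0.45 (adjusted p = 0.780). Exons of Fgf2 overlap those of Nudt6 on the opposite strand over 640 bases, 9.44% of the exon length of Fgf2, and the sources used here do not state whether strand was used in counting. Nudt6 had 1965 reads over all mice against 10339 of Fgf2, and its log2 fold change was 0.33.

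Fgf7 (ENSMUSG00000027208, chromosome 2, 126034658 to 126091185, plus strand), or keratinocyte growth factor, acts from stroma on epithelia through a splice form of FGFR2. Its lowest, median and highest levels were 1.99, 3.17 and 5.002 CPM under AAV-GFP, against 1.53, 2.60 and 5.44 CPM under AAV-Notum. The groups covered nearly the same range, and the extreme mice at both ends were AAV-Notum mice. For Fgf7 the log2 fold change was -0.17 (95% interval -0.88 to 0.54, edgeR adjusted p = 0.784, exact permutation p = 0.558). Fgf10 (ENSMUSG00000021732, chromosome 13, 118669791 to 118792115, plus strand) is the closest relative of Fgf7 and the most abundant ligand here. It ranged over 47.2, 87.7 and 109 CPM in the AAV-GFP group, against 47.2, 67.4 and 101 CPM in the AAV-Notum group. AAV-GFP-2012 and AAV-GFP-2014 were highest, AAV-GFP-2013 and AAV-Notum-2034 lowest. For Fgf10 the log2 fold change was -0.21 (95% interval -0.76 to 0.34, edgeR adjusted p = 0.652, exact permutation p = 0.509). Both intervals are wide and include 0, and neither gene was shown to differ or to be alike between the groups.

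Fgf18 (ENSMUSG00000057967, chromosome 11, 33117430 to 33147400, minus strand), a ligand known from bone and lung, was near the limit of detection. It had 3 to 16 reads per AAV-GFP mouse and 0 to 7 reads per AAV-Notum mouse, 54 and 26 reads in all. AAV-GFP-2012 had most reads, and AAV-Notum-2034 had 0 reads, which allows up to 0.170 CPM for counting error. The difference in mean log2 CPM was -0.81 (exact permutation p = 0.117, two-sided). With single mice left out it ran from -1.04, without AAV-GFP-2021, to -0.50, without AAV-Notum-2034, and the exact permutation p from 0.0411, without AAV-GFP-2021, to 0.234.

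Fgf21 (ENSMUSG00000030827, chromosome 7, 45613886 to 45615490, minus strand), the hormone that liver secretes in fasting and that fat and other tissues can also make, had the fewest reads of the 10 genes. AAV-GFP mice had 32 reads in all and AAV-Notum mice 9. The counts were 12 reads in AAV-GFP-2014 and 10 in AAV-GFP-2013, 3 each in AAV-GFP-2011, AAV-GFP-2021 and AAV-GFP-2022, and 1 in AAV-GFP-2012. AAV-Notum-2041 had 3 reads, AAV-Notum-2032 had 2, and the other 4 AAV-Notum mice had 1 each. Most of the AAV-GFP reads thus came from 2 mice. The exact permutation p of mean log2 CPM was 0.0433 (two-sided), on a difference of -0.86 in mean log2 CPM. The mice with most Fgf21 reads were those with most hepatocyte transcripts. The mean log2 CPM of 10 hepatocyte markers was 8.05 in AAV-GFP-2013 and 6.23 in AAV-GFP-2014, and 5.31 in AAV-Notum-2041. Summed over the list, hepatocyte markers ran from 45.3 to 5868 CPM in the AAV-GFP group and from 20.2 to 846 CPM in the AAV-Notum group. All 10 markers had a lower fitted level in AAV-Notum mice, and 2 of them had an unadjusted edgeR p under 0.05. Of all tested genes, 48.8% were below 0 and 9.54% were lower at that p. None of the 10 markers was at 0 in all mice. Without those 3 mice the difference in Fgf21 was -0.44 (exact permutation p = 0.0635). The exact permutation p was above 0.05 on leaving out 8 of the 12 mice one at a time.

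Fgfr4, the main FGF receptor of hepatocytes, is not one of the 10 genes but followed the same mice. It had 60 reads in AAV-GFP-2013 and 21 in AAV-GFP-2014, 1 to 8 in the other AAV-GFP mice and 4 to 8 in AAV-Notum mice. AAV-Notum-2041 did not stand out, with 6 reads of Fgfr4 and 3 of Fgf21. The part of hepatocyte transcripts in the Fgf21 reads was not tested beyond the values without these mice.

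**Figure D3:**
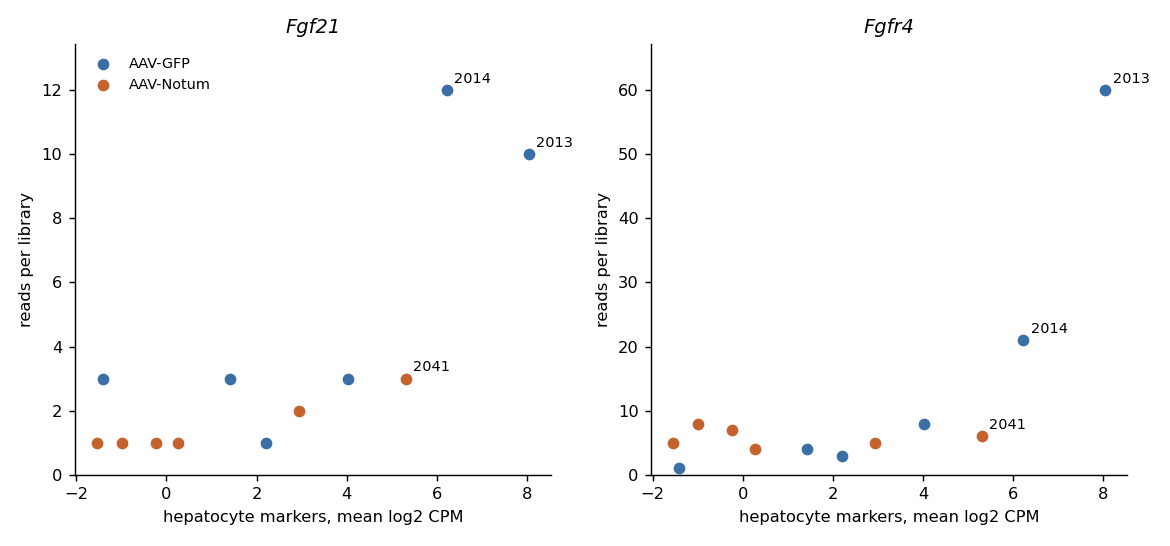
Reads per library of Fgf21 and of Fgfr4 against the mean log2 CPM of 10 hepatocyte markers, 1 point per mouse, AAV-GFP in blue and AAV-Notum in orange, with the 3 mice of highest score numbered. AAV-GFP-2014 and AAV-GFP-2013 hold 12 and 10 reads of Fgf21 and 21 and 60 reads of Fgfr4, and AAV-Notum-2041 lies with the other mice in both plots.

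The DNA before the start of Fgf21 is shown because it held the only match to a motif in the promoters searched, which did not include those of Fgf1 and Fgfr1. The 250 bases before each start site were taken from RefSeq (GRCm38.p6) for 8 of the 10 genes, with 9 start sites in all, and searched on both strands for the letters CTTTGA (TCF/LEF, the factors that Wnt signalling acts through), TGANTCA (AP-1), AGGTCA repeated in the same direction after 1 base N (PPAR/RXR) and CACGTG (E-box). Of 32851 promoters of that length, 13.8%, 6.75%, 0.0335% and 6.02% held these letters. An E-box lay 50 bases before the start of Fgf21, in capitals here, at chr7:45615491-45615740 on the minus strand.
Fgf21: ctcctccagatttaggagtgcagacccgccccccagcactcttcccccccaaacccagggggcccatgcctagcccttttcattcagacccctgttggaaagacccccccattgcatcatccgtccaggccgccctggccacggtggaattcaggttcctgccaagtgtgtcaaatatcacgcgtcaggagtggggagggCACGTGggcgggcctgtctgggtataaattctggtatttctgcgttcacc
Further promoters are shown for the receptor of smallest p, Fgfr3, at chr5:33721474-33721673, and for the one tested gene with a higher mean in AAV-Notum mice, Klb, at chr5:65348161-65348313, both on the plus strand and up to the base before the gene model.
Fgfr3: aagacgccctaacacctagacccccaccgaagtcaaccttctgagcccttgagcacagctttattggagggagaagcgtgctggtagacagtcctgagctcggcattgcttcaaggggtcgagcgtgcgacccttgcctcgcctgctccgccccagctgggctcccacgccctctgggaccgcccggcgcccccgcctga
Klb: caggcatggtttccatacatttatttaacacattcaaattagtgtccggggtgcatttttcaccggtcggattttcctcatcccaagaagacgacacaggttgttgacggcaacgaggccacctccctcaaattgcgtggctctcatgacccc
Of the 4 motifs, none was found in the 250 bases before the start of Fgfr3 or Klb, which says only that these letters are not in that window. The stretches shown had a GC content of 59.6% for Fgf21, 65.0% for Fgfr3 and 49.0% for Klb.

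Fgfr1 (ENSMUSG00000031565, chromosome 8, 25513654 to 25575718, plus strand) encodes the main FGF receptor of fat cells. The lowest, median and highest levels were 206, 376 and 457 CPM in the AAV-GFP group, against 182, 240 and 330.3 CPM in the AAV-Notum group. Levels of 4 AAV-GFP mice were above all AAV-Notum mice, and AAV-GFP-2013 and AAV-GFP-2022 were among the lower AAV-Notum mice. Group means were 343.5 ± 107 against 255 ± 58.6 CPM (SD, n = 6 each). This corresponded to a log2 fold change of -0.43 (standard error 0.22, edgeR adjusted p = 0.394, exact permutation p = 0.128). Fgfr2 (ENSMUSG00000030849, chromosome 7, minus strand), the receptor of Fgf7 and Fgf10 in its epithelial splice form, had 13.6, 18.5 and 24.4 CPM in the AAV-GFP group, against 14.6, 18.1 and 22.5 CPM in the AAV-Notum group. AAV-GFP-2011 was highest and AAV-GFP-2022 lowest. Its log2 fold change of -0.06 was smaller than the spread of either group (95% interval -0.37 to 0.26, edgeR adjusted p = 0.836, exact permutation p = 0.760). Its annotated span, 130162451 to 133123350, includes a transcript that reads into Ctbp2, with which 314 exon bases are shared.

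Fgfr3 (ENSMUSG00000054252, chromosome 5, 33721674 to 33737068, plus strand) encodes a receptor best known for restraining bone growth. The lowest, median and highest levels were 4.48, 7.79 and 9.71 CPM under AAV-GFP, against 4.14, 4.62 and 6.20 CPM under AAV-Notum. The mice differed from those that stood out for Fgf1, since AAV-GFP-2011, highest or next to highest for Fgf1, Fgf2 and Fgfr1, was the lowest AAV-GFP mouse and the other 5 were above all AAV-Notum mice. Group means were 7.54 ± 1.84 against 4.86 ± 0.84 CPM (SD, n = 6 each), from 63 to 163 reads in a library. In edgeR the log2 fold change was -0.63 (standard error 0.19, 95% interval -1.03 to -0.23, adjusted p = 0.177), and the exact permutation p was 0.0152 (two-sided). It was -0.73 without AAV-GFP-2011 and AAV-GFP-2014 (adjusted p = 0.385) and ran from -0.74 to -0.55 when single mice were left out, with an adjusted p of 0.110 or more.

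Klb (ENSMUSG00000029195, chromosome 5, 65348314 to 65384007, plus strand) encodes beta-Klotho, the co-receptor without which FGF21 does not signal. It had 32.4, 59.2 and 71.6 CPM as the lowest, median and highest level under AAV-GFP, against 51.7, 66.0 and 95.4 CPM under AAV-Notum. AAV-Notum-2033, AAV-Notum-2041 and AAV-Notum-2042 were above all AAV-GFP mice with 79.55, 91.2 and 95.4 CPM, while the other 3 AAV-Notum mice lay below the mean of the AAV-GFP group. Group means were 55.3 ± 13.5 against 70.5 ± 20.7 CPM (SD, n = 6 each). The log2 fold change was 0.35 (standard error 0.22, 95% interval -0.12 to 0.82), with an edgeR adjusted p of 0.447 and an exact permutation p of 0.195. With the lymphoid score as covariate the fitted value of Klb was 0.61 (adjusted p = 0.428), and with the adipocyte score 0.47 (adjusted p = 0.147). Kl, the gene of alpha-Klotho, the co-receptor of FGF23, had 0 to 3 reads per mouse.

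Levels of most of these genes moved together with the makeup of the tissue. After the group means had been subtracted, Pearson r with the adipocyte score ran from 0.74 for Klb to 0.94 for Fgfr1 (n = 12 mice). Fgf10 had 0.92, and only Fgfr3 lay outside this range among the tested genes, with -0.23. AAV-GFP-2011 and AAV-GFP-2014, the mice with lymphoid scores below 0, had the highest adipocyte scores of the 12, at 11.26 and 11.37, and they were also highest for Fgf1, Fgf2 and Fgfr1. AAV-GFP-2022, lowest for Fgf2 and Fgfr2 and low for Fgf1 and Fgfr1, had with AAV-Notum-2031 the lowest adipocyte score, 10.24. All 14 lymphoid markers had a higher fitted level in AAV-Notum mice, 0 of them with an unadjusted p under 0.05, and summed to 7.99 to 1654 CPM in the AAV-GFP group and 519 to 2244 CPM in the AAV-Notum group. Of the 10 adipocyte markers, 7 had a lower and 3 a higher fitted level, 0 of them with an unadjusted p under 0.05, and none of either list was at 0 in all mice. Of all tested genes, 48.8% had a lower fitted level, and 9.54% were lower and 4.64% higher at that p. With the adipocyte score as covariate in edgeR the log2 fold change was -0.82 for Fgf1 (adjusted p = 0.0883), -0.43 for Fgf2 (adjusted p = 0.168), -0.18 for Fgfr1 (adjusted p = 0.287) and -0.67 for Fgfr3 (adjusted p = 0.0986). With the lymphoid score it was -0.56 for Fgf1 (adjusted p = 0.502), -0.24 for Fgf2 (adjusted p = 0.786), -0.05 for Fgfr1 (adjusted p = 0.972) and -0.71 for Fgfr3 (adjusted p = 0.397). With the RNA integrity number it was -0.83 for Fgf1 (adjusted p = 0.407), -0.54 for Fgf2 (adjusted p = 0.586), -0.31 for Fgfr1 (adjusted p = 0.698) and -0.72 for Fgfr3 (adjusted p = 0.309). With the lymphoid score and with the RNA integrity number, Fgf2 no longer had an unadjusted p under 0.05. The values for Fgf1, Fgf2 and Fgfr1 were thus closer to 0 beside each of these 3 covariates, while that for Fgfr3 was not. The hepatocyte score moved Fgf1, Fgf2 and Fgfr1 away from 0, with -1.26, -0.87 and -0.55, and brought Fgfr3 closer to 0, with -0.50 (edgeR adjusted p from 0.134 to 0.259 over these genes). Endothelial markers also varied with these mice, with a mean log2 CPM of 6.58 in AAV-GFP-2014 and 6.55 in AAV-GFP-2011 against 6.03 in AAV-GFP-2022 and a highest value of 6.85 in AAV-GFP-2012, and their part in these values was not tested.

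**Figure D4:**
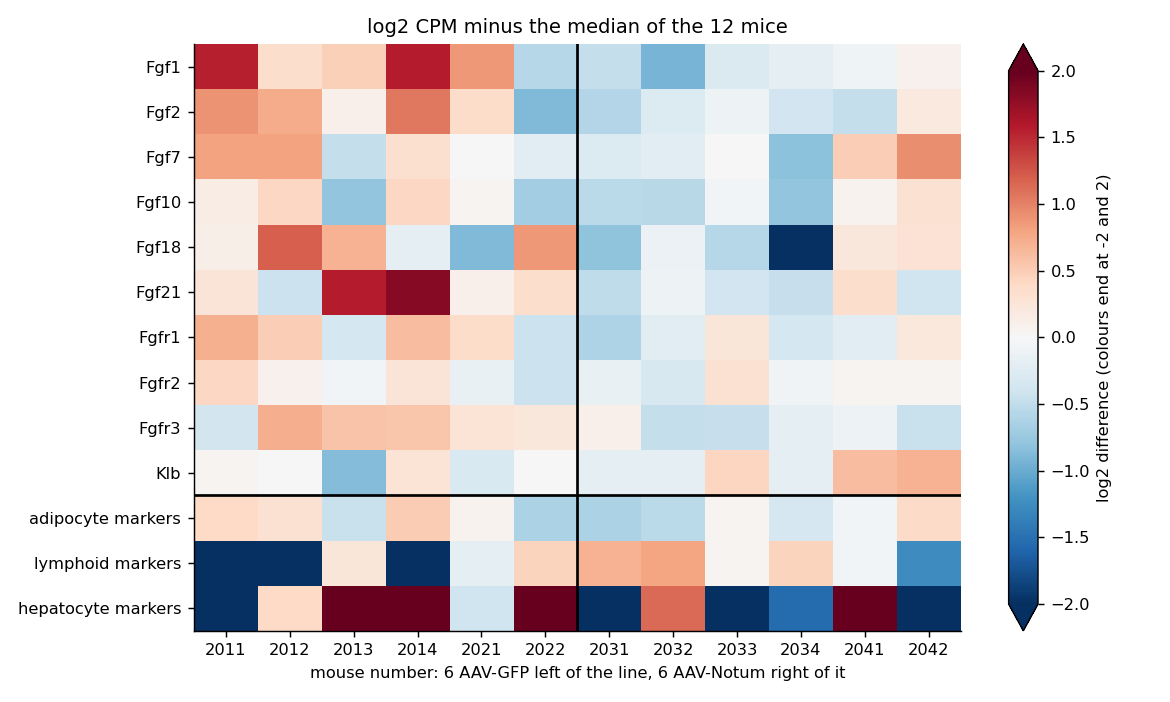
Heat map of log2 CPM minus the median of the 12 mice for the 10 genes (upper rows) and for the mean of the adipocyte, lymphoid and hepatocyte marker lists (lower rows), with 1 column per mouse and colours that end at -2 and 2. Fgf1, Fgf2 and Fgfr1 are highest in AAV-GFP-2011 and AAV-GFP-2014, the columns with low lymphoid and high adipocyte markers, and Fgf21 is highest in AAV-GFP-2013 and AAV-GFP-2014, where hepatocyte markers are high.

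The rest of the FGF pathway was examined in 8 lists. None of 12 other secreted FGF ligands, among them Fgf9, Fgf15 and Fgf23, had enough reads for the test, with at most 8 reads in a mouse. That highest count was of Fgf6, an FGF of skeletal muscle, in AAV-Notum-2042, which also had the highest level of muscle creatine kinase (Ckm), 464 CPM. Of the intracellular FGF homologous factors, which are not secreted and regulate sodium channels, 3 of 4 were tested. Mean Fgf13 was 19.8 against 12.2 CPM (log2 fold change -0.70, edgeR adjusted p = 0.303, exact permutation p = 0.0974), and mean Fgf14 was 1.08 against 2.08 CPM (log2 fold change 0.93, adjusted p = 0.182, exact permutation p = 0.00649). Both had an unadjusted p under 0.05. The log2 fold change of Fgf13 was -0.46 without AAV-GFP-2014, -0.23 without AAV-GFP-2011 and AAV-GFP-2014, -0.43 with the adipocyte score and -0.16 with the lymphoid score as covariate (adjusted p from 0.372 to 0.896). For Fgf14 the adipocyte score brought the adjusted p to 0.0401. Of the other receptors and co-receptors 2 of 4 were tested and 0 had an unadjusted p under 0.05. The same held for 3 of 5 extracellular partners and for 8 of 8 regulators and outputs of FGF1 and FGF21 in fat, among them Pparg (log2 fold change -0.24) and Ucp1, the uncoupling protein of thermogenic fat (log2 fold change 1.99, standard error 1.08, edgeR adjusted p = 0.405).

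Over these lists, 16 genes were lower and 2 higher at an unadjusted p under 0.05, where 9.54% of all tested genes were lower and 4.64% higher. None of the listed genes passed an adjusted p of 0.05 in edgeR. DESeq2 called 4 of the listed genes lower, where it called 2.18% of all genes lower. Its adjusted p were 3.73e-06 for Spry4, 0.00307 for Spry1, 0.0078 for Hspg2 and 0.0097 for Spred2. Without AAV-GFP-2022 edgeR called 4 of the listed genes, where it called 146 genes lower and 12 higher among all 15707 tested. Of 20 tested heparan sulfate core proteins and enzymes, 7 were lower and 0 higher, 35.0% against the background of 9.54%. The lists were chosen with earlier results of these data known, so such shares are a description and not a test. Perlecan (Hspg2), the basement membrane proteoglycan, had means of 972 and 560.1 CPM (log2 fold change -0.80, edgeR adjusted p = 0.140), glypican 3 (Gpc3) had a log2 fold change of -0.73 and syndecan 4 (Sdc4) of -0.36. Of 23 adaptors and kinases, 2 were lower, 8.70% and so no more than the background, and 0 higher. The 2 were the docking protein gene Gab1 (log2 fold change -0.64, edgeR adjusted p = 0.208) and Ptpn11, which encodes the phosphatase SHP2 (-0.32, adjusted p = 0.328). The median log2 fold change of that list was -0.02. Several of these values moved with the tissue scores. With the lymphoid score as covariate the log2 fold change was -0.45 for Hspg2, -0.55 for Sdc4, -0.27 for Gab1 and -0.06 for Ptpn11 (edgeR adjusted p from 0.236 to 0.911). Ptpn11 was also at -0.18 with the adipocyte score and at -0.15 without AAV-GFP-2011 and AAV-GFP-2014, while Hspg2 reached an adjusted p of 0.0159 with the adipocyte score.

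Of 17 tested feedback and target genes of FGF receptors, 6 were lower at an unadjusted p under 0.05 (35.3%, background 9.54%) and 1 was higher (background 4.64%), and the median log2 fold change was -0.28. The list was chosen with earlier results of these data known, so the shares given here describe its genes and do not test them. Other receptor tyrosine kinases also act on these genes. Spry4, a Sprouty inhibitor of the MAP kinase pathway, ranged from 20.1 to 41.8 CPM under AAV-GFP and from 8.38 to 15.8 CPM under AAV-Notum. Its log2 fold change was -1.36 (standard error 0.22, edgeR adjusted p = 0.0518), just short of the threshold. Spry1 had 16.38 to 26.8 CPM and 10.5 to 16.35 CPM (log2 fold change -0.71, edgeR adjusted p = 0.112), and Spred2 had 21.5 to 29.4 CPM and 19.0 to 21.1 CPM (log2 fold change -0.36, adjusted p = 0.117). For Spry4, Spry1 and Spred2 the groups did not overlap, with AAV-Notum mice lower, 3 of the 17 genes against the background of 0.693%, and the exact permutation p was 0.00216 for each, the smallest that 6 mice against 6 allow. With the adipocyte score as covariate the edgeR adjusted p was 0.00422 for Spry4, 0.0457 for Spry1 and 0.0496 for Spred2, and with the lymphoid score 0.0804, 0.381 and 0.397. The immediate early gene Egr1 had a log2 fold change of 0.55 (edgeR adjusted p = 0.280). Il17rd, Phlda1 and Spred1 were also lower at an unadjusted edgeR p under 0.05, with log2 fold changes of -0.46, -0.50 and -0.32. Dusp6 and Etv5, which are also known as targets of FGF signalling, had the smallest log2 fold changes of the list in either direction, 7.9e-04 and 0.0024. Of the 17 genes, 10 had a lower and 7 a higher fitted level, so the genes of this list did not move as one.

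**Figure D5:**
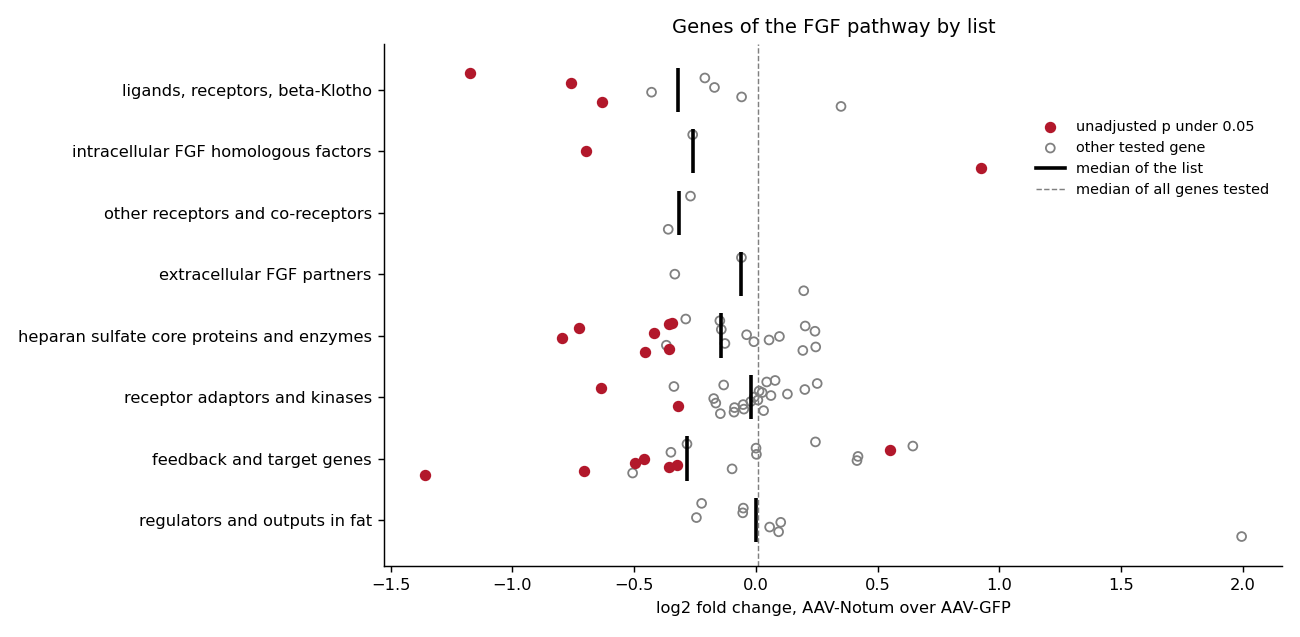
log2 fold change of each tested gene, AAV-Notum over AAV-GFP, for the 8 tested ligand, receptor and co-receptor genes and for 7 lists of other FGF pathway genes, with genes at an unadjusted p under 0.05 in red, the median of a list as a black line and the median of all tested genes as a dashed line. Spry4 lies farthest to the left at -1.36, Ucp1 farthest to the right at 1.99, and the adaptors and kinases lie around 0.

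For each of the 8 tested genes, the 2 genes with the most similar pattern over the 12 mice were found after the group means had been subtracted, as a description that shares libraries and tissue makeup. Fgfr1 had the closest partners, the endothelin-converting enzyme gene Ece1 (Pearson r = 0.996) and the neurotrophin receptor gene Ntrk2 (r = 0.989). The genes most like Fgf10 were Msrb3 (r = 0.981) and Stx17 (r = 0.976), and those most like Klb were Wdfy3 (r = 0.970) and 2610507B11Rik (r = 0.954). Fgf2 was followed by Rfxap (r = 0.969) and Tctn2 (r = 0.968), Fgf1 by Ndn and Nqo2 (r = 0.965 for both), Fgf7 by Mospd1 (r = 0.962) and Napb (r = 0.956), and Fgfr2 by P4hb (r = 0.961) and 1810055G02Rik (r = 0.955). Fgfr3 had no partner as close, with Adam22 (r = 0.839) and Gm6712 (r = 0.825).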

How the data were processed

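The data were RNA-seq libraries of iWAT from 12 mice, with 6 in each labelled group. TruSeq libraries were read by the authors as 50-base single-end reads on a HiSeq4000. Per the labels and the submitters' processing notes they were checked with FastQC, mapped to mm10 with STAR 2.3.1 and tested with DESeq2. The counting program, its annotation and its use of strand are not given in the sources used here. The deposited counts are raw reads per gene. The deposited log2 values are normalized reads plus 1, from which whole reads were recovered for 100% of values within 0.01. These reads differ from the raw table in most mice for most of the 10 genes, with ratios of the totals from 0.976 to 1.02, so the tables rest on different counts. They were used only in alternatives.

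Genes passed filterByExpr (minimum count 10, minimum total 15), and their counts were normalized by TMM and fitted with edgeR 4.0.16 in R 4.3.3 (glmQLFit, glmQLFTest), with Benjamini-Hochberg adjustment over 15585 genes and a threshold of 0.05. CPM use the TMM library size and log2 CPM a prior count of 2. Exact permutation tests were two-sided over 924 assignments of the mice. Standard errors are the log2 fold change over the square root of F. Gene positions and exon lengths come from GENCODE vM21 (GRCm38), which held 54069 of 54134 identifiers. The score of a marker list is its mean log2 CPM.

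The members, pathway lists and marker lists were chosen with earlier results of these data known. Genes named beside the members were those of the pathway lists with an unadjusted p under 0.05, at most the 3 of smallest p per list and direction, together with Notum, Fgfr4, Kl, marker genes and the 2 most similar genes per member. Pparg, Dusp6, Etv5, Il17rd, Phlda1, Spred1, Fgf6, Fgf9, Fgf15, Fgf23 and Nudt6 were named after their values were seen. Of the marker lists, those of progenitors, endothelium, smooth muscle, macrophages, skeletal muscle, epithelium, Schwann cells and beige adipocytes served as checks. Their scores overlapped between the groups, with exact permutation p from 0.0779 to 0.812. At an unadjusted edgeR p under 0.05, 2 of 10 progenitor and 1 of 6 macrophage markers were lower, and 1 of 5 beige markers was higher. The skeletal muscle, epithelial and Schwann cell lists had 0 such markers, and all 5 Schwann cell markers had a lower fitted level. Of all tested genes, 9.54% were lower and 4.64% higher at that p.

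Other settings were DESeq2 1.42.0 (filter level 0.1), voom of limma 3.58.1, RLE normalization, genes kept from 1 read in total or only with 10 reads in each library, robust dispersion, covariates (RNA integrity number, or the score of lymphoid, adipocyte or hepatocyte markers), omission of AAV-GFP-2011 with AAV-GFP-2014 or of single mice, and limma on the authors' normalized values. Added after seeing the data were the recovered reads and the fit without the 3 mice of most hepatocyte transcripts. The fits were also run on simulated counts with known changes, and the outcome is not given here. Total counts were 14711113 to 21618860 per mouse, and the limits for 0 reads (3 counts) cover counting error only. Figures were drawn with matplotlib 3.10.9.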

Additional observations from a re-analysis of the deposited data

Results flagged for a closer look

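One value stood apart from the rest of its group by Dixon's criterion at 95%. Fgf13, an intracellular FGF homologous factor, had 16.5 CPM in AAV-Notum-2031, against 10.8 to 12.0 CPM in the other 5 AAV-Notum mice. Among the 42 groups of 6 mice examined, 1 was found, where about 2.1 are given by chance at 1 in 20. The log2 fold change of Fgf13 was -0.70 with all mice and -0.80 without that mouse, and over 26 alternatives it ran from -0.83 without AAV-GFP-2022 to -0.16 with the lymphoid score as covariate.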

How the results depend on the processing

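Most alternatives tested 8 of the 10 genes. Among the genes tested, 0 passed an adjusted p of 0.05 in the alternatives that kept all mice, except DESeq2, which called 1 (Fgf1). Leaving out single mice gave 0 to 2, with 2 (Fgf1 and Fgf2) without AAV-GFP-2022. The number lower at an unadjusted p under 0.05 was 2 to 4 throughout and 3 to 4 with single mice left out, and over all these alternatives 4.88% to 13.6% of all genes were lower. Fgf2 was not among them with the RNA integrity number, with the lymphoid score, without AAV-GFP-2011 and AAV-GFP-2014, or without the 3 mice of most hepatocyte transcripts. The number higher was 1 (Klb) with the lymphoid score and 1 with the adipocyte score as covariate, and 0 to 0 with single mice left out. Over the 26 alternatives the log2 fold change ran from -1.35 to -0.56 for Fgf1, from -0.93 to -0.24 for Fgf2, from -0.55 to -0.05 for Fgfr1, from -0.74 to -0.50 for Fgfr3 and from 0.22 to 0.61 for Klb, with no change of sign.

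Signs turned for genes near 0. Fgf7 was 0.26 with the lymphoid score, 0.0685 with the adipocyte score and 0.00523 without AAV-GFP-2011 and AAV-GFP-2014. Fgf10 was 0.17 with the lymphoid and 0.0495 with the adipocyte score. Fgfr2 was 0.0658 with the RNA integrity number, 0.18 with the lymphoid score, 0.0616 with the adipocyte score, 0.11 without those 2 mice, and -0.14 to 0.0275 with single mice left out. The cause was not tested. For Fgf21 11 of 17 alternatives no longer passed. Its exact permutation p was 0.0108 to 0.0952 with single mice left out, and an edgeR fit without filter gave a log2 fold change of -1.71 (adjusted p = 0.438). Division by length set the places of 4 of the 10 genes in the order of levels, and leaving out mice moved 0 to 0 of them.

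All genes called at an adjusted p of 0.05 numbered 8, against 436 in DESeq2, 229 with the adipocyte, 31 with the hepatocyte and 4 with the lymphoid score, 15 and 5 with the stricter and no filter, 14 with RLE, 4 with the authors' normalized values, 11 with the recovered reads, 1 without AAV-GFP-2011 and AAV-GFP-2014, 0 without the 3 mice of most hepatocyte transcripts, and 1 to 158 with single mice left out, 158 without AAV-GFP-2022. Without the 3 mice, 1099 genes were lower at an unadjusted p under 0.05. The 16 pathway genes lower at an unadjusted p under 0.05 became 9 with the RNA integrity number, 9 with the lymphoid score, 10 without the 3 mice, and 9 to 20 with single mice left out. The share of all genes lower moved with them, from 9.54% to 5.95%, 4.88%, 6.95%, and 6.67% to 13.6%. Of the pathway genes 0 passed an adjusted p of 0.05, against 4 in DESeq2, 5 with the adipocyte score, 2 with the hepatocyte score, 1 with RLE, 1 with the stricter filter, and 0 to 4 with single mice left out (4 without AAV-GFP-2022). Spry4 passed an adjusted p of 0.05 in 6 of 26 alternatives. No paired analysis was possible because the mouse numbers are unique to each animal and the groups share none. Fgf18 and Fgf21 rest on few reads, at most 16 and 12 per mouse.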

Other observations

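Fgf1 and the feedback gene Spry4 lie beside each other on chromosome 18, 237.3 kb apart with 0 protein-coding genes between them, and their log2 fold changes were -1.17 and -1.36. Fgf2 and Spry1 are 229.8 kb apart on chromosome 3 with 1 protein-coding gene between them, and their log2 fold changes were -0.76 and -0.71. No other of the 10 genes had a gene of the pathway lists within 500 kb on its chromosome. This was noticed after the values were seen, and no relation between position and level was tested.

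Of 8 endothelial markers, 7 had a lower and 1 a higher fitted level in AAV-Notum mice, and 3 were lower at an unadjusted edgeR p under 0.05, while of all tested genes 48.8% were below 0 and 9.54% lower at that p. Their mean log2 CPM was 6.40 ± 0.31 under AAV-GFP and 6.12 ± 0.22 under AAV-Notum (SD, n = 6 each, exact permutation p = 0.110), and they summed to 705 to 1153 CPM and 655 to 893 CPM. Of 5 smooth muscle and pericyte markers, 3 had a lower and 2 a higher fitted level, and 2 were lower at an unadjusted p under 0.05. Their mean log2 CPM was 6.32 ± 0.22 under AAV-GFP and 6.09 ± 0.19 under AAV-Notum (SD, n = 6 each, exact permutation p = 0.0779), the smallest p of the lists used as checks.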
